A study of Homo sapiens with 48 samples.

Results

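The ZNF genes are the human genes whose approved symbol is ZNF followed by a number, the largest group of zinc finger genes in the genome. They were followed in K562 cells, an established human leukaemia cell line driven by the BCR-ABL1 fusion kinase, after treatment with imatinib, an inhibitor of that kinase. A gene was taken where a single symbol of this form was annotated and where its brightest probe set averaged at least 6.43 over all 48 samples on the log2 scale, which is the median over the probe sets of the array. This gave 103 genes out of 235 measured ZNF genes and 11963 measured genes. The 235 include ZNF205-AS1, ZNF213-AS1 and ZNF217-AS1, antisense RNA genes named after a ZNF gene, all of them below this level. The 103 genes were thus chosen by their mean level over imatinib and mock samples together, so the levels below are a description. The rule did not use the difference between treatments as such. A gene near the threshold could still pass through the samples of a single treatment. ZNF43, ZNF33B, ZNF211, ZNF133 and ZNF688 did so through imatinib samples, and ZNF217 through mock samples. Means of ZNF43, ZNF33B and ZNF217 were 6.75, 6.70 and 6.17 in imatinib samples and 6.34, 6.32 and 6.86 in mock samples. The changes of such genes are counted below as a description only.

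Per the labels, each of 8 sets lettered A to H held 3 samples treated with 1 micromolar imatinib for 24 hours and 3 mock-treated samples, which gave 24 of each. What the letters stand for is not stated, and neither is whether each sample was its own culture. The p-values therefore rest on the spread among these samples, part of which may be technical. RNA was isolated with a column kit alone from imatinib samples and with Trizol followed by a column kit from mock samples, and the spiked control RNAs were also set lower in the imatinib samples. The effects of the drug and of these handling steps cannot be told apart in any value below. In bulk RNA, fewer cells of a kind and less RNA per cell cannot be told apart either.

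Values are log2 levels of Affymetrix probe sets, and a change is the imatinib level minus the mock level on that scale, so that a change of 1 is a doubling. The median SD of a probe set between replicates was 0.061 to 0.147 over the 16 groups of 3 samples. The mean level of a group lay between 5.89 and 7.61 with nearly all of that difference between sets, so imatinib and mock samples were compared within a set. All 8 measured genes chosen as marks of K562 and red cell precursors had levels of 8.14 to 13.18, and 7 of them stood above the 90th percentile of all probe sets. The 5 monocyte and granulocyte marks lay between 4.35 and 5.81, below the median. Of the marks of T cells, B cells and fibroblasts, 3 of 5, 1 of 3 and 3 of 4 stood at or above the median and none above the 90th percentile.

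Most ZNF proteins carry a row of C2H2 zinc fingers, small loops held by a zinc ion that each read a few bases of DNA. Many also begin with a KRAB box, which recruits the scaffold protein TRIM28 and through it the histone methyltransferase SETDB1 and heterochromatin proteins, so that the bound DNA is silenced. Much of this DNA is retrotransposon sequence, and the genes themselves arose largely by tandem duplication, which left long rows of them on chromosome 19. Other ZNF proteins have no such box and act in ribosome assembly, RNA processing, mitosis or protein modification. All but 1 of the 103 genes are annotated as protein coding, and ZNF767P is a transcribed pseudogene.

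After imatinib, 53 of the 103 ZNF genes were higher and 25 were lower at an adjusted p of 0.05 in the fit of all sets, and 25 did not pass, where 65.2% of all probe sets passed in either direction. That is 51.5% higher and 24.3% lower, against 39.3% higher and 25.8% lower among all probe sets tested. Among the 6974 genes of at least the same level, 41.4% were higher and 39.5% were lower, 80.9% in all. These shares describe the libraries, and the difference between the family and other genes was not tested. When each array was centred on its median, 42 ZNF genes were higher and 31 lower, so rises made up 57.5% of the calls instead of 67.9%. Of genes of at least the same level, 34.4% were then higher and 42.8% lower. Quantile normalization within sets gave 56 higher and 25 lower, or 69.1%, where 43.9% of genes of that level were higher and 35.6% lower. No gene was called in opposite directions under these scalings.

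The changes were small for most of the family. The median change was 0.07 with quartiles of -0.08 and 0.20, beside a median of 0.02 and quartiles of -0.27 and 0.18 for genes of at least that level. In 74 genes the change was under 0.25 in size, and 49 of those 74 still passed the test with 24 samples on each side. A rise of at least 0.25 was measured in 18 genes and a fall of at least 0.25 in 11. For these counts at 0.25 no share among other genes was taken, so they describe the family alone. Only ZNF273 rose and only ZNF593 fell by 2-fold or more, where 1.49% of all probe sets rose and 2.14% fell that far, and 2.49% and 3.87% of genes of at least that level. The sign was the same in all 8 sets for 45 genes, of which 31 were up and 14 down. This is 43.7% of the family, against 39.0% of all probe sets and 57.8% of genes of at least that level.

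**Figure D1:**
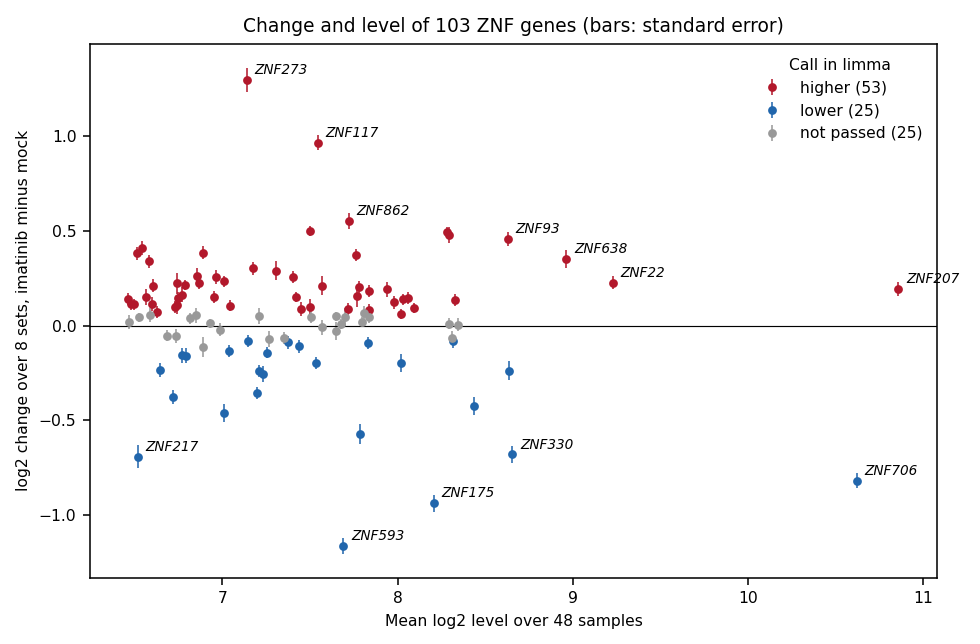
Change of each of the 103 ZNF genes (vertical axis, log2, imatinib minus mock, fit of all 8 sets, bars are standard errors) against its mean log2 level over 48 samples (horizontal axis). Points are coloured by call, with 53 higher, 25 lower and 25 not passed, and most lie within 0.25 of 0 while ZNF273, ZNF117, ZNF593, ZNF175 and ZNF706 stand away from the rest.

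The largest rises were in a pair of neighbouring genes of chromosome 7, ZNF273 and ZNF117. ZNF273 rose 2.45-fold, a change of 1.29 ± 0.06 (SE, 24 against 24 samples, adjusted p = 1.94e-23). In set F its levels were 7.65, 7.93 and 8.24 in imatinib samples and 6.50, 6.78 and 6.18 in mock samples, a change of 1.45. The largest change of a set was 1.55, in set G. In set C, with the smallest change at 1.05, they were 6.69, 7.14 and 6.67 in imatinib samples and 5.61, 5.80 and 5.95 in mock samples. In every set the lowest imatinib sample stood above the highest mock sample. ZNF117 rose 1.95-fold, a change of 0.96 ± 0.04 (SE, adjusted p = 1.90e-26). In set G its levels were 9.41, 9.25 and 9.27 in imatinib samples and 8.14, 8.01 and 8.27 in mock samples. In set E, with the smallest change at 0.65, they were 6.18, 5.93 and 6.15 in imatinib samples and 5.37, 5.50 and 5.45 in mock samples. The groups did not overlap in any set. A dimmer second probe set of ZNF117 also rose, by 0.64 at a mean level of 5.20. The brightest probe sets of both genes have the suffix _x_at, which marks probes that may also match other transcripts, and the part of such signal in the rise was not tested.

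ZNF862 on the same chromosome followed, with a change of 0.55 ± 0.04 (SE, adjusted p = 5.16e-16). In set B its levels were 9.05, 8.91 and 9.05 in imatinib samples and 8.47, 8.46 and 8.49 in mock samples. The groups did not overlap in any of the 8 sets, and 7 sets passed the test alone, with an adjusted p of 0.0505 in set F. ZNF592, a partner of the chromatin reader ZMYND8, rose by 0.50 ± 0.03 (SE, adjusted p = 3.26e-21). In set G it had levels of 8.82, 8.67 and 8.80 in imatinib samples and 8.06, 8.10 and 8.17 in mock samples. It passed in all 8 sets, and its other probe set rose by 0.38. ZNF672 rose by 0.49 ± 0.03 and ZNF266 by 0.48 ± 0.04 (SE), and both also passed in all 8 sets.

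The other rises were smaller. ZNF93, a KRAB protein that binds and silences LINE-1 elements, rose by 0.46 ± 0.03 (SE, adjusted p = 3.29e-16), passed in 7 sets, and rose by 0.26 with its other probe set. ZNF638, a DNA-binding protein that acts with the HUSH silencing complex on retroviral DNA, rose by 0.35 ± 0.05 (SE, adjusted p = 1.80e-08). Its median level was 8.95 in the 24 imatinib samples and 8.70 in the 24 mock samples. The ranges over all sets overlap, and within sets the groups were apart in 5 of 8. ZNF91, a KRAB protein that silences SVA elements, rose by 0.15 ± 0.04 (SE, adjusted p = 0.00180) and passed in 1 set. ZNF43, a KRAB gene close to ZNF93 and ZNF91 on chromosome 19, rose by 0.41 ± 0.04 and its groups were apart in all 8 sets. ZNF33B, another KRAB gene, rose by 0.38 ± 0.03 and ZNF358 by 0.38 ± 0.04 (SE). ZNF43 and ZNF33B met the level rule through their imatinib samples alone, so their rises are a description. ZNF76, an activator related to ZNF143, rose by 0.37 ± 0.03 (SE).

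The largest falls were in ZNF593, ZNF175 and ZNF706, which have unlike known roles. ZNF593, whose yeast counterpart Bud20 helps to carry the large ribosomal subunit out of the nucleus, was 2.24-fold lower, a change of -1.16 ± 0.04 (SE, adjusted p = 1.51e-29). In set F its levels were 6.55, 6.94 and 6.70 in imatinib samples and 7.77, 8.06 and 8.17 in mock samples. In set H, with the smallest fall at -0.99, they were 7.22, 7.23 and 7.33 in imatinib samples and 8.24, 8.35 and 8.16 in mock samples. Every imatinib sample lay below every mock sample of its set, and the change ran from -1.27 to -0.99 over the sets. ZNF175, a KRAB protein that lowers transcription from the HIV-1 promoter in macrophages, was 1.91-fold lower, a change of -0.94 ± 0.04 (SE, adjusted p = 9.03e-24). Its levels in set B were 8.40, 8.46 and 8.71 in imatinib samples and 9.87, 9.81 and 9.67 in mock samples. In set H, with the smallest fall at -0.72, they were 8.04, 8.06 and 8.08 in imatinib samples and 8.79, 8.91 and 8.63 in mock samples. The groups were apart in all 8 sets.

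ZNF706, a small protein with a single finger whose mouse counterpart restrains the pluripotency factor Klf4, was 1.76-fold lower, a change of -0.82 ± 0.04 (SE, adjusted p = 5.46e-24). Its levels in set C were 10.17, 10.16 and 10.05 in imatinib samples and 11.11, 11.16 and 11.21 in mock samples. In set A they were 9.76, 9.61 and 9.77 in imatinib samples and 10.46, 10.44 and 10.39 in mock samples. The groups did not overlap in any set. ZNF217, an oncogene amplified in breast cancer that joins the LSD1 and CoREST repressor complex, fell by 0.69 ± 0.06 (SE, adjusted p = 6.11e-14) on the log2 scale. In set E its levels were 4.85, 4.15 and 4.43 in imatinib samples and 5.82, 5.21 and 5.02 in mock samples. It passed in 7 sets, and in set F the change of -0.43 had an adjusted p of 0.142. The level rule was met by ZNF217 through its mock samples alone. ZNF330, a nucleolar protein, fell by 0.68 ± 0.05 (SE, adjusted p = 6.66e-18) on the log2 scale and passed in all 8 sets. Levels in set D were 8.36, 8.36 and 8.35 in imatinib samples and 9.31, 9.17 and 9.43 in mock samples. A second probe set of ZNF330 fell by 0.29.

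**Figure D2:**
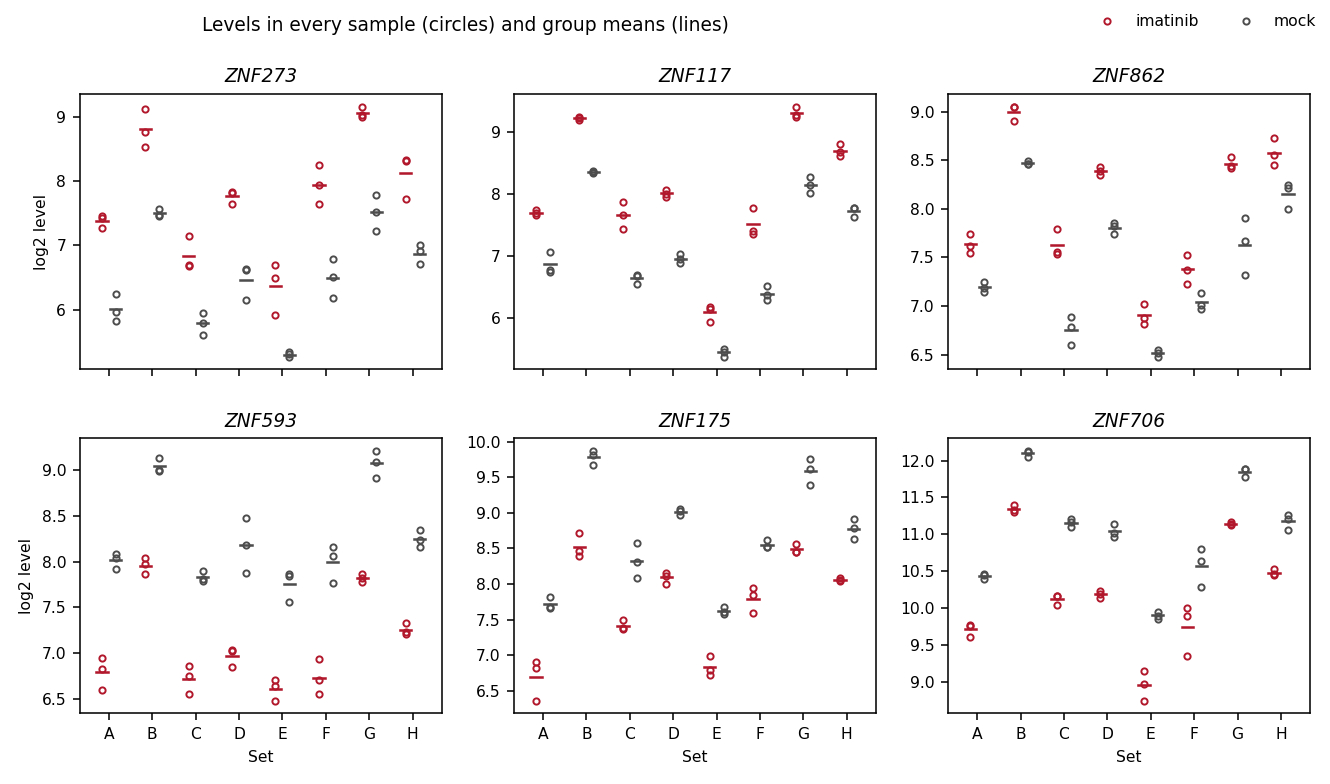
Log2 level (vertical axes) of 6 ZNF genes in every sample of sets A to H (horizontal axes), with imatinib in red left of mock in grey, circles for samples and lines for means of 3. ZNF273, ZNF117 and ZNF862 stand higher and ZNF593, ZNF175 and ZNF706 lower in imatinib samples of all 8 sets, with no overlap within a set.

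ZNF451, a SUMO ligase, fell by 0.57 ± 0.05 on the log2 scale (SE, adjusted p = 2.72e-13), while its dimmer second probe set fell by 0.09. ZNF195, a KRAB gene, fell by 0.46 ± 0.05 (SE). ZNF146, a protein made almost wholly of fingers, fell by 0.42 ± 0.05 (SE, adjusted p = 1.10e-10), with groups apart in 6 sets. ZNF587B fell by 0.38 ± 0.04 and ZNF26 by 0.36 ± 0.03 (SE), each with groups apart in 7 sets. ZNF473, which works with the U7 particle in cutting the ends of histone transcripts, fell by 0.26 ± 0.04 (SE, adjusted p = 4.88e-07) and by 0.12 with its other probe set. ZNF74 fell by 0.24 ± 0.03 (SE).

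The promoters of ZNF genes were searched for short letters bound by factors active in blood cells, because members of the family moved in both directions. The table used, from RefSeq on build GRCh38.p14, held 92 of the 103 genes and 27305 genes in all, each with 300 bases from 250 before to 50 after the annotated start. The letters CCGGAAG, read on either strand and shared by ETS family factors, were in 41.3% of the 92 ZNF promoters, in 19.5% of promoters of genes of at least that level and in 10.7% of all promoters. The share was 40.4% among ZNF genes that rose, 43.5% among those that fell and 40.9% among those that did not pass, with no test of a difference. It was 59.4% on chromosome 19 and 31.7% on other chromosomes, and 39.4% among the dimmer ZNF genes. The GC box letters GGGCGGG were in 40.2% of ZNF promoters, 54.8% of promoters of genes of at least that level and 32.9% of all. The GATA letters AGATAA were in 4.35%, 4.89% and 10.5% of these groups, and the E-box letters CACGTG in 10.9%, 10.6% and 7.43%. A match is a description of the letters in this window and not a bound site.

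In the 250 bases before the start alone, 35.9% of the 92 ZNF promoters and 8.82% of all promoters hold the ETS letters. Of the 12 largest rises 11 have an entry and 2 of these hold the letters, and of the 12 largest falls 10 have an entry and 3 hold them, namely ZNF175, ZNF195 and ZNF587B. The 4 promoters printed here are those of the risers ZNF43 and ZNF638 and the fallers ZNF175 and ZNF195, to set the letters in both directions side by side. They lie at chr19:21836183-21836432 on the minus strand, chr2:71331532-71331781 on the plus strand, chr19:51571033-51571282 on the plus strand and chr11:3379147-3379396 on the minus strand, in that order. Each runs 5′ to 3′ in the direction of the gene and ends just before the annotated start, and capitals mark the ETS letters or their reverse complement.
ZNF43: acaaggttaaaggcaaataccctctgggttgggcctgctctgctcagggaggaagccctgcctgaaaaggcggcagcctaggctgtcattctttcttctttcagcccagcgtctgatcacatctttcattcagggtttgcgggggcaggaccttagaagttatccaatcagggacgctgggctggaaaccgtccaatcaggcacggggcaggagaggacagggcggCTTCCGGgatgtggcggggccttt
ZNF638: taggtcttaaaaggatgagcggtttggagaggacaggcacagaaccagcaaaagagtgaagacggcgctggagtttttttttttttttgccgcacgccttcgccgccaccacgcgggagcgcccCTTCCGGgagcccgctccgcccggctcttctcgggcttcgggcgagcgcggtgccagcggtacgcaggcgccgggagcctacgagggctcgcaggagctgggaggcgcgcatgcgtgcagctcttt
ZNF175: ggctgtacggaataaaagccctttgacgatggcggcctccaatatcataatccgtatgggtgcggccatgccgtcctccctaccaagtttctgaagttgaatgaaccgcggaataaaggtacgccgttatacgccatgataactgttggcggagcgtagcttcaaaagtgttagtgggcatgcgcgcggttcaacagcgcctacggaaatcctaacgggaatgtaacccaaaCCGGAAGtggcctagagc
ZNF195: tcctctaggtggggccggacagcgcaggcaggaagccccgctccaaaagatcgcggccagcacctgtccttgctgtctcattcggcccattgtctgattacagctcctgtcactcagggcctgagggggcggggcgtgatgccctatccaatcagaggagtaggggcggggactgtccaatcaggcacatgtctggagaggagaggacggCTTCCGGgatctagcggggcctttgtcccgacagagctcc
The letters begin 24 bases before the start in ZNF43, 126 in ZNF638, 18 in ZNF175 and 40 in ZNF195. The promoters of ZNF43 and ZNF195 resemble each other although the genes lie on chromosomes 19 and 11 and changed in opposite directions, by 0.41 and -0.46. From 60 bases before the letters to the end of a shared stretch, 66 of 84 bases are identical. The stretch reads CTTCCGGGATNTNGCGGGGCCTTT, where N marks the 2 of 24 positions that differ. It was chosen after the sequences were seen. Of all 27305 promoters 10 hold it, and all 10 belong to ZNF genes, of which 2 are among the 92 matched here and 3 among the dimmer ZNF genes.

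The 5 brightest probe sets of the family read ZNF207, ZNF706, ZNF22, ZNF638 and ZNF330, although brightness does not compare amounts between genes. ZNF207, a spindle protein that carries BUB3 to kinetochores, had a mean level of 10.86 and rose by 0.19 ± 0.04 (SE, adjusted p = 8.93e-06). Its levels ran from 9.56 to 11.97 with a median of 11.01 in imatinib samples and from 9.57 to 11.86 with a median of 10.72 in mock samples. The groups were apart in 3 of 8 sets, and a second probe set rose by 0.15. ZNF706 followed at 10.62, and ZNF22 stood at 9.23 with a rise of 0.23 ± 0.04 (SE, adjusted p = 3.91e-07). ZNF22 in set G had levels of 10.37, 10.32 and 10.34 in imatinib samples and 10.07, 10.19 and 10.07 in mock samples. ZNF638 stood at 8.96 and ZNF330 at 8.65. At the level threshold, the lowest genes taken were ZNF133 at 6.46, ZNF324B at 6.46 and ZNF688 at 6.47, with changes of 0.14, 0.02 and 0.12. The highest left out were ZNF253 at 6.40, ZNF84 at 6.39 and ZNF239 at 6.38, with changes of 0.30, 0.34 and -0.76.

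Several members with well-described roles did not pass the test in the fit of all sets. ZNF274, which brings SETDB1 to the ends of other ZNF genes, changed by -0.07 ± 0.04 (SE, adjusted p = 0.113). ZNF384, a transcription factor whose gene is fused to others in acute leukaemia, changed by 0.01 ± 0.03 (SE, adjusted p = 0.788), while its dimmer second probe set was called higher at 0.12 (adjusted p = 0.00623). ZNF148, a factor that binds GC-rich promoters, changed by 0.05 ± 0.04 (SE, adjusted p = 0.303).

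Each set alone compared 3 samples with 3. The background here is the share of the 6974 genes of at least the same level. In set A, 22 ZNF genes were higher and 13 lower, or 21.4% and 12.6%, where 20.4% of these genes were higher and 23.7% lower. In set B, 33 were higher and 18 lower, or 32.0% and 17.5%, against 31.9% and 31.7%. In set C, 19 were higher and 20 lower, or 18.4% and 19.4%, against 22.5% and 32.5%. In set D, 29 were higher and 16 lower, or 28.2% and 15.5%, against 28.3% and 31.4%. In set E, 11 were higher and 7 lower, or 10.7% and 6.8%, against 11.5% and 21.9%. In set F, 12 were higher and 7 lower, or 11.7% and 6.8%, against 12.3% and 17.2%. Sets E and F made the fewest calls, in the family as among these genes. In set G, 19 were higher and 15 lower, or 18.4% and 14.6%, against 17.2% and 25.0%. In set H, 20 were higher and 8 lower, or 19.4% and 7.77%, against 19.1% and 19.5%. The share of rises lay near the background in every set, and the share of falls lay below it in all 8, which was not tested. The median change of the 103 genes lay between 0.03 and 0.10 in the 8 sets. Some counts rested on single samples. In set C falls numbered 9 without mock sample 2, 11 without mock sample 3 and 12 without imatinib sample 1, with 15, 15 and 17 rises. Rises in set E numbered 18 without imatinib sample 1 and 4 without mock sample 3, and rises in set G numbered 32 without mock sample 2. With samples left out no share among other genes was taken, so whether calls on the whole array shifted likewise was not tested.

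No gene of the family was called higher in one set and lower in another, and 31 were called in no set. Calls were made in all 8 sets for 5 rises, where 3.94% of all probe sets and 7.36% of genes of at least that level were, and for 4 falls, where 6.57% and 12.6% were. The 5 rises were ZNF273, ZNF117, ZNF592, ZNF672 and ZNF266, and the 4 falls were ZNF593, ZNF175, ZNF706 and ZNF330. At least 5 sets called 14 genes higher and 11 genes lower. For these counts, for genes called in no set and for opposite calls, no share among other genes was taken. They describe the family alone. The imatinib and mock samples did not overlap in any set for 10 rising genes, where 5.43% of all probe sets and 10.1% of genes of at least that level behaved so. The same held for 6 falling genes, where 8.60% and 15.9% did.

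**Figure D3:**
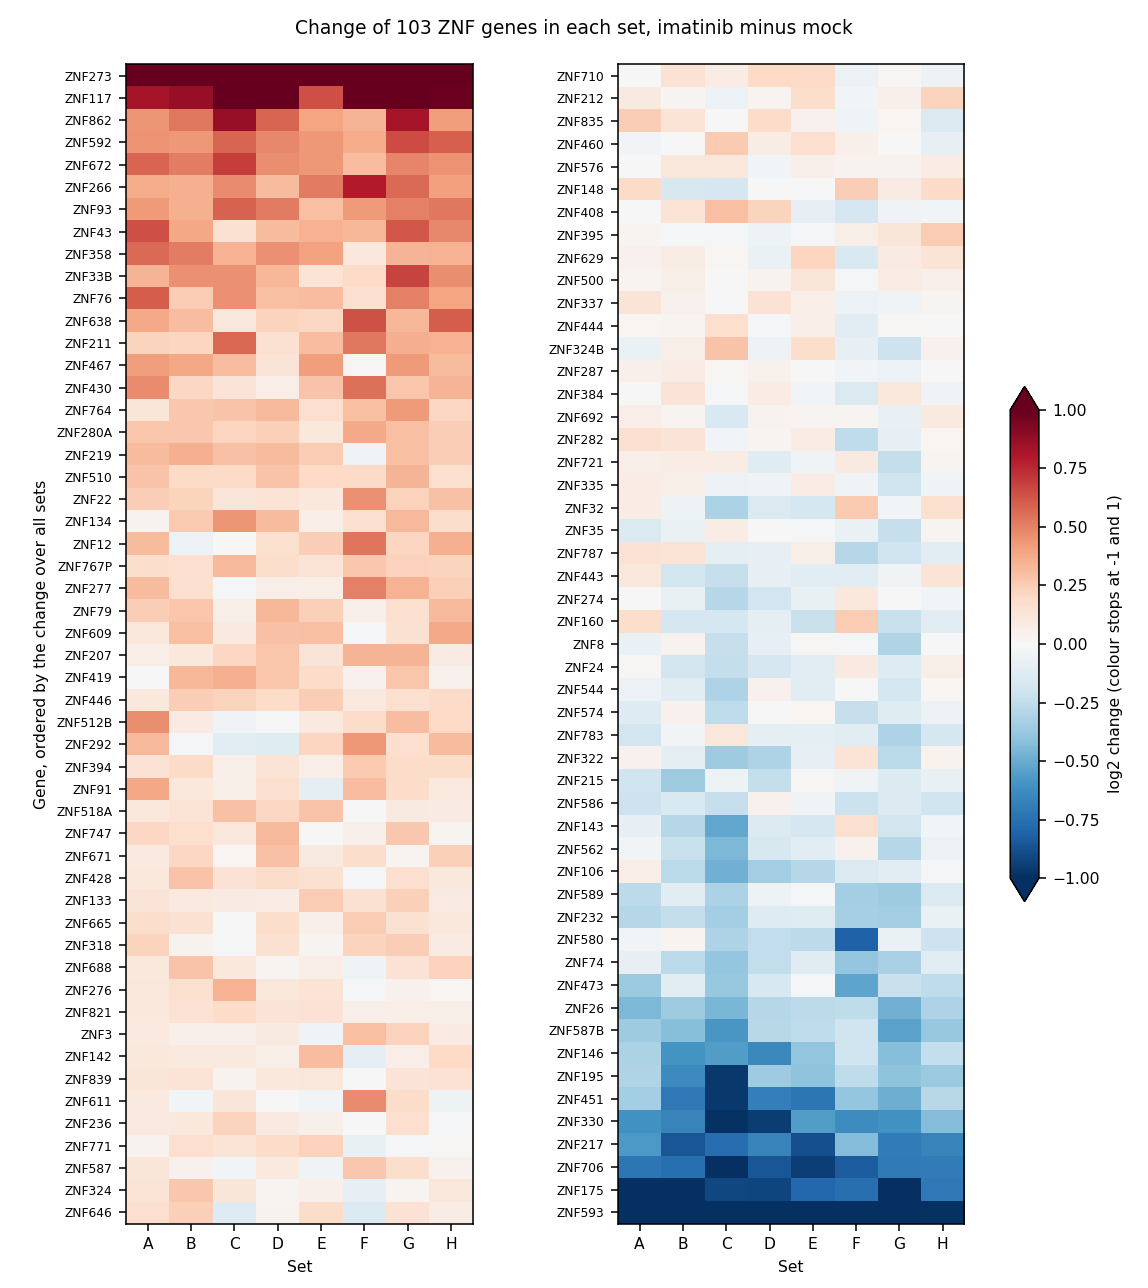
Change of all 103 ZNF genes (rows, ordered by the change over all sets) in each set A to H (columns), as log2 imatinib minus mock, with red above and blue below 0 and colour ending at 1 and -1. The rows of ZNF273 and ZNF117 and of ZNF593, ZNF175 and ZNF706 keep one colour over all 8 sets, and the middle rows are pale and mixed in sign.

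For 6 genes the size of the change was not the same in all sets by the test of the set-by-treatment terms, against 7.20% of all probe sets and 8.14% of genes of at least that level. With the replicate block ZNF580, ZNF195 and ZNF33B passed, and ZNF408, ZNF143 and ZNF862 did not, at adjusted p of 0.0879, 0.0861 and 0.0690. ZNF580 changed by -0.80 ± 0.16 in set F and by 0.02 ± 0.06 in set B (SE, adjusted p of the difference = 0.00193). Its levels in set F were 8.34, 7.80 and 7.76 in imatinib samples and 8.66, 8.72 and 8.93 in mock samples. In set B the groups overlapped, with 9.49, 9.53 and 9.49 in imatinib samples and 9.36, 9.52 and 9.55 in mock samples. ZNF195 fell most in set C, with levels of 5.24, 5.39 and 5.11 in imatinib samples and 6.21, 6.26 and 6.18 in mock samples, a change of -0.97. Its change in set F was -0.25, and the test of the difference gave an adjusted p of 0.00766. ZNF33B changed by 0.67 in set G and 0.13 in set E (adjusted p = 0.00845). ZNF862 changed by 0.87 in set C and 0.34 in set F (adjusted p = 0.0307). ZNF195, ZNF33B and ZNF862 kept one sign in all 8 sets.

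ZNF408 and ZNF143, like ZNF580, had both signs. ZNF408, a gene linked to inherited disease of retinal vessels, changed by 0.30 ± 0.06 in set C and by -0.17 ± 0.10 in set F (SE, adjusted p = 0.0150), and the change over all sets was 0.04 with an adjusted p of 0.224. Levels in set C were 7.50, 7.50 and 7.52 in imatinib samples and 7.24, 7.24 and 7.12 in mock samples. ZNF143, an activator of small nuclear RNA genes, changed by -0.52 ± 0.13 in set C and by 0.16 ± 0.10 in set F (SE, adjusted p = 0.0258). Its levels in set C were 5.76, 5.95 and 5.49 in imatinib samples and 6.09, 6.35 and 6.32 in mock samples. A dimmer second probe set of ZNF143, at a mean level of 5.18, was called higher over all sets with a change of 0.12, against -0.16 for the brightest. The direction of ZNF143 therefore depended on the probe set.

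**Figure D4:**
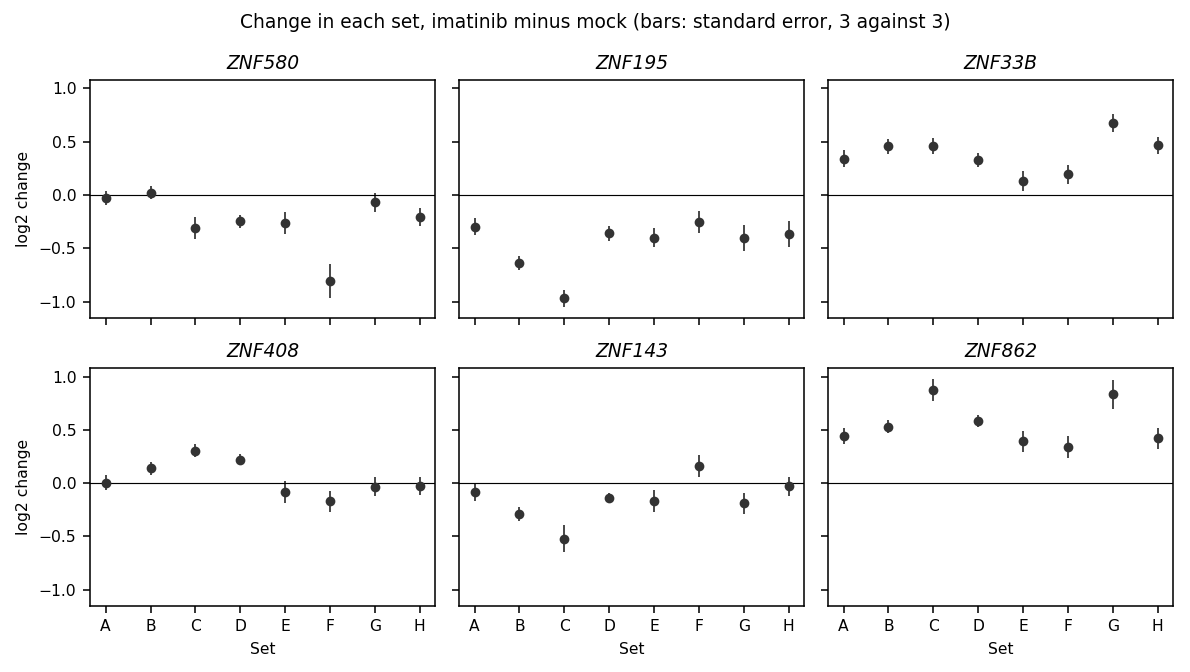
Change in each set A to H (horizontal axes) of the 6 ZNF genes whose change differed between sets (3 of them also with the replicate block), as log2 imatinib minus mock with standard errors of the fit of that set, 3 against 3 samples. ZNF580 is lowest in set F at -0.80, ZNF195 and ZNF143 in set C at -0.97 and -0.52, and ZNF862 is highest in set C at 0.87.

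Of the 103 genes 35 lie on chromosome 19, which is 34.0%, against 7.56% of genes of at least that level. On chromosome 19, 16 ZNF genes were higher and 10 lower with a median change of 0.05, or 13 higher and 14 lower after centring of arrays, where 42.1% of the other genes there of at least that level were higher and 37.6% lower. On the other chromosomes, 37 of 68 were higher and 15 lower with a median change of 0.09, or 29 higher and 17 lower after centring. The 12 genes of chromosome 7 included 10 rises and 1 fall with a median change of 0.21, or 8 rises and 1 fall after centring, where 40.5% of genes of at least that level on the chromosome rose and 38.5% fell. The 9 genes of chromosome 16 included 7 rises and no fall, or 4 rises and no fall after centring, where 46.0% rose and 34.8% fell. The 4 of chromosome 11 included 3 falls and no rise with and without centring, where 46.0% rose and 34.3% fell. After centring, 34.4% of all genes of at least that level rose and 42.8% fell. None of these differences between chromosomes was tested.

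Neighbouring ZNF genes were grouped in chains where each start lay within 1000000 bases of the previous one, with the dimmer ZNF genes included. A whole group can therefore span more than that. Of all measured genes 41.6% rose and 27.1% fell. Of genes below the level threshold, like most in the groups of 14 and 16 here, 42.0% rose and only 9.62% fell. The group of ZNF273 and ZNF117 on chromosome 7 held 1 more measured gene, ZNF107, which rose by 0.47 at a mean level of 4.88. All 3 were higher under each scaling, and all 3 were read by probe sets with the suffix _x_at. On chromosome 19, the group of 14 genes that holds ZNF93, ZNF430, ZNF43 and ZNF91 had 11 rises and no fall, with a median change of 0.15. Centring gave 8 rises and 1 fall there, and quantile normalization 8 rises and no fall. The group of 16 genes around ZNF45 and ZNF226 had 13 rises and no fall with a median change of 0.14, and 10 rises and no fall under each of these scalings. In that group ZNF226 rose by 0.47, ZNF45 by 0.47, ZNF227 by 0.43 and ZNF180 by 0.39, all below the level threshold. Among the rises, _x_at probe sets read ZNF93, ZNF430, ZNF43, ZNF253, ZNF85, ZNF675 and ZNF492 in the group of 14. Other designs read ZNF91, ZNF506, ZNF682 and ZNF254 there. In the group of 16, _x_at probe sets read the rises of ZNF221, ZNF230 and ZNF222. Such probes may also match other transcripts, and the part of that signal in these groups was not tested.

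Other groups moved in both directions. The 18 genes that begin with ZNF175 had 7 rises and 3 falls, or 3 rises and 4 falls after centring. There ZNF175 changed by -0.94, ZNF83 by 0.66 and ZNF137P, a pseudogene, by 0.55. The 33 genes near the end of chromosome 19, 18 of them of the 103, had 11 rises and 5 falls, or 5 rises and 7 falls after centring. The adjacent genes ZNF587B and ZNF587 changed by -0.38 and 0.09. On chromosome 7, the group of ZNF282, ZNF212, ZNF783, ZNF767P, ZNF467 and ZNF862 had 4 rises and 1 fall, with ZNF467 at 0.30 and the pseudogene ZNF767P at 0.21. A dimmer second probe set of ZNF467 did not pass, with a change of -0.01 (adjusted p = 0.826), so that rise depended on the probe set.

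**Figure D5:**
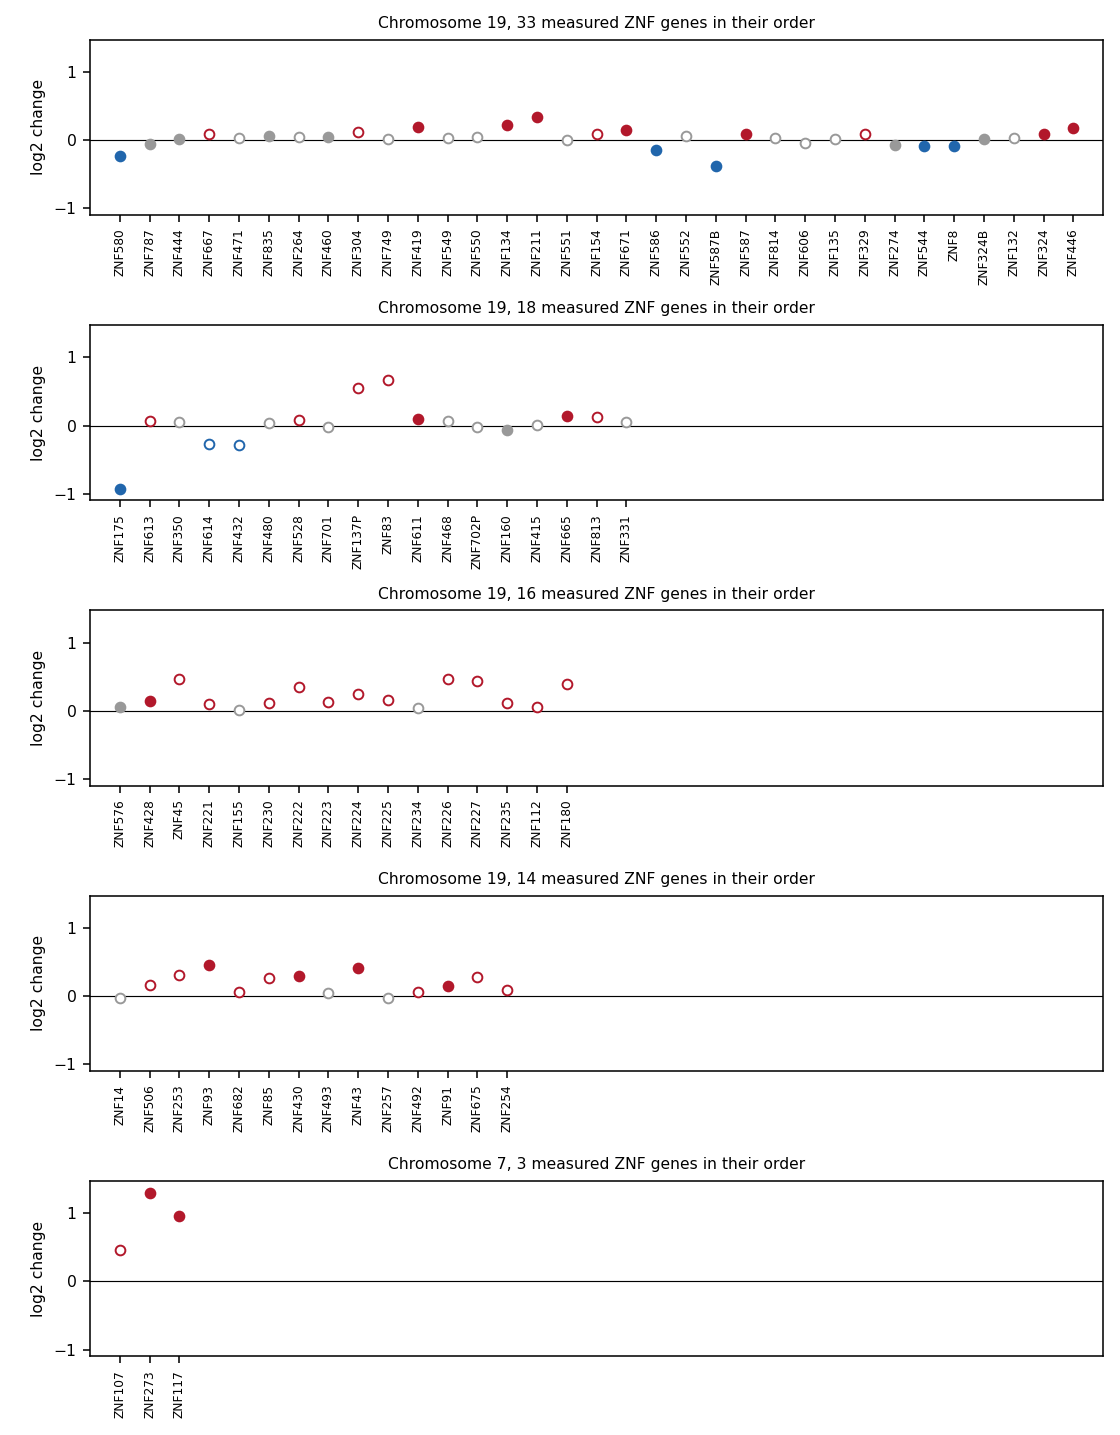
Change over all sets (vertical axes, log2, imatinib minus mock) of neighbouring measured ZNF genes in their order along the chromosome (horizontal axes) in 4 groups of chromosome 19 and 1 of chromosome 7. Filled points are among the 103 genes and open points are dimmer, with red for higher, blue for lower and grey for not passed, and the groups of 14, 16 and 3 genes hold no fall while those of 33 and 18 hold both directions.

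Counts were also taken by the design of the probe set, with no test between designs. Of the 20 ZNF genes read by a probe set with the suffix _x_at, 14 were higher and 1 was lower, where 45.2% of genes of at least that level with this suffix were higher and 35.2% lower. Of the 59 with the suffix _at, 25 were higher and 20 lower, where 43.0% and 37.7% of such genes were. Centring of arrays gave 20 higher and 24 lower, where 34.4% and 42.8% of all genes of at least that level were. Of the 24 with the suffix _s_at, 14 were higher and 4 lower, where 38.1% and 43.2% of such genes were. The part of shared probes in the rises was not tested. Of the 103 genes 42 had more than 1 probe set, with 53 other probe sets in all. Of these 53, 30 were called in the same direction as the brightest and 1, that of ZNF143, in the opposite one.

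The 132 dimmer ZNF genes included 61 rises and 12 falls with a median change of 0.06, or 46.2% and 9.09%. Counted among them are the antisense RNA genes ZNF205-AS1 and ZNF213-AS1, both called higher, and ZNF217-AS1, which did not pass. Of all 4989 genes below the threshold 42.0% rose and 9.62% fell, also with a median change of 0.06. Centring of arrays gave 36 rises and 17 falls and quantile normalization 39 rises and 14 falls. The largest changes among them were the rise of ZNF652 by 0.69 and the fall of ZNF239 by 0.76 on the log2 scale.

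Of 28 genes listed here as possible cofactors of KRAB zinc finger proteins, 25 were measured. Of these, 8 were higher, 7 lower and 10 not passed, with a median change of 0.01. That is 32.0% and 28.0%, where 41.6% of all measured genes were higher and 27.1% lower. The list had no level rule, and MTA2 at 5.82 and EHMT1 at 6.05 lay below the threshold. Of genes at or above the threshold 41.4% were higher and 39.5% lower. TRIM28, the scaffold that binds the KRAB box, had a mean level of 10.54 in imatinib samples and 10.55 in mock samples, a change of -0.01 ± 0.04 (SE, adjusted p = 0.853). SETDB1, the methyltransferase it carries, changed by 0.07 ± 0.03 (SE, adjusted p = 0.0508). TRIM33, a relative of TRIM28, rose by 0.61 ± 0.04 (SE, adjusted p = 1.87e-19), with levels of 8.11 to 10.66 in imatinib samples and 8.00 to 10.21 in mock samples. ATRX, a chromatin remodeller that loads histone variants at silent repeats, rose by 0.50 ± 0.06, and the methyltransferase EHMT2 rose by 0.33 ± 0.04 (SE). CBX1, a heterochromatin protein, fell by 0.57 ± 0.06 on the log2 scale (SE, adjusted p = 2.80e-12). MORC2, an ATPase that works with the HUSH complex, fell by 0.51 ± 0.04, and the remodeller CHD4 fell by 0.28 ± 0.03 (SE). The list moved both ways under each scaling, with 8 rises and 7 falls after centring and 13 rises and 6 falls after quantile normalization.

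Other zinc finger families under the same level rule were small. Of all genes at or above that level 41.4% were higher and 39.5% lower. Of 12 ZBTB genes, which pair fingers with a BTB domain, 5 were higher and 4 lower with a median change of 0.05. Of 4 ZKSCAN genes 1 was higher and 1 lower, of 3 ZSCAN genes 2 were higher and 1 lower, and of 3 ZFP genes 1 was higher and 1 lower. The ZFP genes were ZFP36L2, which was higher, ZFP36, which was lower, and ZFP64, which did not pass. All these groups were formed by symbol alone, which need not mean the same kind of finger. Of 8 KLF genes, a family with 3 fingers that includes the red cell factor KLF1, 5 were higher and 1 lower with a median change of 0.33, beside 0.07 in the ZNF genes. These differences between families were not tested.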

How the data were processed

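RNA of 48 samples was measured on Affymetrix arrays. The authors deposited log2 values of 22283 probe sets, while their background correction, summary and normalization were not stated in the labels. The values were used as deposited, without the 68 control probe sets, which left 22215. By the platform annotation, 19065 had 1 symbol, of which 19053 matched the RefSeq gene table of GRCh38.p14, 1043 had several symbols and 2107 had none. Of those with 1 symbol, 304 named 235 ZNF genes, and 15 probe sets with several symbols including a ZNF gene were left out. The brightest probe set stood for a gene.

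The two-sided test was limma's moderated test (limma 3.58.1, R 4.3.3) on all 22215 probe sets, with Benjamini-Hochberg adjustment over all of them and a threshold of 0.05. The fit of all sets had the set as a factor, each set was also fitted alone, and a moderated F test of 7 set-by-treatment terms compared sets. Summaries used pandas 2.3.3 and figures matplotlib 3.10.9. The fits were tested on simulated data. Precision is limited by how many arrays there are.

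The genes, lists and tests were chosen with earlier results of these data known. Named genes were the 12 largest rises and 12 largest falls with the same sign in all 8 sets, the 6 differing between sets, the 5 brightest, the 3 on each side of the level threshold and the 6 cofactors with the smallest p. Other genes were named after their values were seen, among them ZNF91, ZNF274, ZNF384, ZNF148, TRIM28, SETDB1 and the neighbours. Alternatives covered scaling, dim probe sets, replicate blocks, set differences as units, the choice of probe set, symbols, array weights and samples or sets left out. A planned split of the genes by KRAB box, SCAN box and finger number was not run, because no protein sequences were used here. Pairing by replicate number was not shown. The correlation of deviations of samples with the same number in a set ran from -0.52 to 0.49 over 24 pairs. It ran from -0.60 to 0.57 over 48 pairs with other numbers, and no set was counted as paired. With 3 samples in a group, these correlations cannot show that pairing was absent. The closest replicate pair still differed by up to 0.67 log2, so no sample was counted as a duplicate. The keyword field of imatinib samples names mock treatment as well, so groups follow title and description.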

Additional observations from a re-analysis of the deposited data

Results flagged for a closer look

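The change differed between sets for 6 ZNF genes, by the adjusted p of the set-by-treatment terms. The p was 0.00193 for ZNF580, 0.00766 for ZNF195, 0.00845 for ZNF33B, 0.0150 for ZNF408, 0.0258 for ZNF143 and 0.0307 for ZNF862. With the replicate block the p was 0.0191 for ZNF580, 0.0196 for ZNF195 and 0.0406 for ZNF33B, and the other 3 genes did not pass, at 0.0879 for ZNF408, 0.0861 for ZNF143 and 0.0690 for ZNF862. Set F held an extreme of 5 of them. In set C the change was lowest for ZNF195 at -0.97 and ZNF143 at -0.52, and highest for ZNF408 at 0.30 and ZNF862 at 0.87. In set F it was lowest for ZNF580 at -0.80, ZNF408 at -0.17 and ZNF862 at 0.34, and highest for ZNF195 at -0.25 and ZNF143 at 0.16. ZNF33B ran from 0.13 in set E to 0.67 in set G. The 3 imatinib samples of ZNF580 in set F had an SD of 0.32, against 0.14 in the mock samples.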

How the results depend on the processing

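Over the alternatives run, 28 of 32 named ZNF genes kept their direction and their side of the threshold. The exceptions were ZNF143, at 0.12 (adjusted p = 0.0125) with the upper of its 2 probe sets, an alternative chosen after seeing the data, ZNF133, at 0.02 (adjusted p = 0.564) with the lower of its 2, ZNF408, past the threshold at 0.08 without replicate 3 and at 0.08 without set F, and ZNF324B, not called under any setting, at -0.019 after centring, -0.014 after quantile normalization, -0.019 without set C and -0.0035 without set E, in a range up to 0.051 with a set left out. The median change of the family was 0.034 after centring, beside -0.015 for genes at or above the level threshold. With samples or sets left out, rises over all sets numbered 44 to 53 and falls 22 to 28. With the 8 set differences as units they numbered 46 and 21.

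Pairing was not shown by the data, and the replicate block gave 51 rises and 25 falls over all sets, 12 rises in set G and 3 genes differing between sets. That last count was 11 after quantile normalization and 8 with array weights by set, which were chosen after seeing the data. Centring gave 14 rises in set D and 7 in set E. Leaving out 1 sample gave 8 to 12 falls in set A, 9 to 22 falls in set C, 16 to 25 rises and 10 to 17 falls in set D, 4 to 18 rises in set E, 5 to 10 rises in set F, and 11 to 32 rises and 9 to 16 falls in set G. Falls in set A numbered 8 without imatinib 1 or mock 2, and in set C 9 without mock 2, 11 without mock 3 and 12 without imatinib 1. Rises in set D were 18 or fewer without any 1 imatinib sample or mock 3, and falls 10 without imatinib 3. Rises in set E were 5 without imatinib 3 and 6 without mock 2, and in set F 5 without mock 2, 6 without imatinib 1 and 7 without mock 3. In set G, rises were 11 without imatinib 1 or 3, and falls 9 without any 1 imatinib sample. The cause was not tested for any of these. No share among other genes was taken beside these counts, so they are not shown to be particular to the family. A low signal limits the dimmer ZNF genes, and no signal over background was used.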
